A study of Mus musculus with 9 samples.

Results

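The genes described here encode the core machinery of macroautophagy: the complexes that start an autophagosome, the lipid kinase and lipid carriers that build its membrane, the conjugation enzymes, proteases and ATG8 proteins that extend and seal it, and the receptors that load it. The list holds 36 genes chosen by name from this known machinery, with earlier results of these data known. Of these, 35 had a probe set annotated to that gene alone and the brightest such probe set of each passed the filter on dim signals, out of 18193 genes with a probe set of their own and 11453 tested. *Optn*, a cargo receptor, was not analysed here.

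Autophagy encloses cytoplasm, damaged organelles or protein aggregates in a membrane sac that then fuses with a lysosome. Small ubiquitin-like proteins of the ATG8 family (the LC3 and GABARAP proteins) are attached to lipid on the growing sac, where they bind cargo receptors. In the intestinal epithelium the pathway is known for its part in granule secretion by Paneth and goblet cells and in the clearing of bacteria and of overloaded endoplasmic reticulum (ER), and a human *ATG16L1* variant is linked to Crohn disease.

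Transcripts were measured in the large intestine of mice with a missense allele of *Muc2*, the gel-forming mucin of goblet cells, and of wild-type mice, with 3 mice per group, all labelled male and 8 weeks old, and 1 array per mouse made from equal amounts of proximal and distal RNA. *Eeyore* mice were of mixed C57BL/6 and NOD-SCID background and carried T2996C, a serine to proline change in the D4 domain. *Winnie* mice were C57BL/6 and carried G9492A, a cysteine to tyrosine change in the D3 domain. Both alleles came from N-ethyl-N-nitrosourea mutagenesis of C57BL/6 founders, and the wild-type mice were C57BL/6. All cells of the tissue had been homogenised together, so that fewer cells of a type and less RNA per cell cannot be told apart.

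TFEB, a transcription factor of autophagy and lysosomal genes, binds sites built on the letters CACGTG, and NRF2, a factor of the oxidative stress response, binds antioxidant response elements (TGACNNNGC). Promoters were in the sequence table for 30 of the 36 genes, and both strands of the 250 bases before each start site were searched. CACGTG was found in 3 of these genes (*Atg3*, *Atg5* and *Atg7*), against 6.86% of all genes and 6.02% of all promoters of this length. The antioxidant element was found in *Ulk2* and *Atg13*, 2 of 30 genes, against 11.5% of all genes and 10.2% of all promoters. The full palindrome GTCACGTGAC (0.27% of genes) and the ATF4 composite element TGATGNAAN (3.89% of genes) were in none of the 30. The matches do not overlap. The promoters that hold a match are given 5′ to 3′ with the match in capitals (on either strand), from RefSeq on GRCm38.p6, because they include *Atg3*, which rose in both strains, *Atg13*, which fell in both on the deposited scaling, and *Ulk2*, which fell there in *Eeyore* mice.
*Atg3* (chr16:45158579-45158828, plus strand): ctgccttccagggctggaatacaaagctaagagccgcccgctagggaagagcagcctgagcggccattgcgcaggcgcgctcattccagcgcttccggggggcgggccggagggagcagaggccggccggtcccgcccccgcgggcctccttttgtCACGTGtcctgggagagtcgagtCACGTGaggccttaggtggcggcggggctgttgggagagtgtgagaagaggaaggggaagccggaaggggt
*Atg5* (chr10:44268089-44268338, plus strand): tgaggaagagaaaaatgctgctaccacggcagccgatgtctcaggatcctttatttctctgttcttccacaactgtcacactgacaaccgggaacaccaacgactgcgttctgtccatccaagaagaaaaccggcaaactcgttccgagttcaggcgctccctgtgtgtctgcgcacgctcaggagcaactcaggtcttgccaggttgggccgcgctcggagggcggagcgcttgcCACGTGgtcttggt
*Atg7* (chr6:114670846-114671095, plus strand): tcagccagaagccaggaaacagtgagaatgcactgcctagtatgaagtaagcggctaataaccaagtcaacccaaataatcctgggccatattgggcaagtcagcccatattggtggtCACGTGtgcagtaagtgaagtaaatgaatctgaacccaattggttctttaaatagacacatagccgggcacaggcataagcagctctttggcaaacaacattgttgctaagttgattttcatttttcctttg
*Ulk2* (chr11:61855093-61855342, minus strand): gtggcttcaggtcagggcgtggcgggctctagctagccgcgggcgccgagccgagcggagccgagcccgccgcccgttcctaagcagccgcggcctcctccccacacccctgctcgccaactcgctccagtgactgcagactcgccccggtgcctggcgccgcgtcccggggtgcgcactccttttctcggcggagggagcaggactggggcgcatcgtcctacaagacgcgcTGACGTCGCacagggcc
*Atg13* (chr2:91710593-91710842, minus strand): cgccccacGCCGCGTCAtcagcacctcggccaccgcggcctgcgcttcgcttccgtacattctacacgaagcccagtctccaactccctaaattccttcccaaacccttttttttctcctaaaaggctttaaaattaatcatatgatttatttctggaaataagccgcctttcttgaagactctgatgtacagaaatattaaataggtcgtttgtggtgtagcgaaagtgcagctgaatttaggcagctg
The *Atg3* promoter holds the letters CACGTG at 2 places. The *Atg7* window lies inside the span of the gene (114643127 to 114860604), before a start site within it. Most of the *Ulk2* window also lies inside its gene (61775598 to 61855334). These are matches of letters in a window, and binding was not measured.

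The arrays set some limits on every value that follows. Median signals per array were 95.5 to 99.3 in *Eeyore* mice, 87.9 to 95.2 in *Winnie* mice and 118 to 129 in wild-type mice, so that the groups stood apart in their dim signals. The labels call all mice male, but *Xist*, the transcript of the inactive X chromosome, had signals of 65.7 to 107 in *Eeyore*, 9.13 to 61.8 in *Winnie* and 7371 to 8261 in wild-type mice, while the Y-linked *Eif2s3y* had 1193 to 1320.3, 1074 to 1454 and 4.73 to 24.1. Sex and *Muc2* allele therefore cannot be told apart in these arrays, nor can the mixed background and the allele of *Eeyore* mice. Markers of colon epithelium and of the muscle wall were both bright: the keratin gene *Krt20* had signals of 19254 to 40220.5 over the 9 mice and the smooth muscle actin gene *Acta2* had 17456 to 43058. *Muc2* itself had signals of 32542 to 36854 in *Eeyore*, 25759 to 35694 in *Winnie* and 70046 to 85946 in wild-type mice, which does not check the alleles, since both are point mutations.

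On the deposited scaling autophagy transcripts fell more often than they rose in both strains, and after median centring they rose more often than they fell. In *Eeyore* mice 10 of the 35 genes fell (28.6%) and 3 rose (8.57%), against 16.6% of all tested genes that fell and 14.0% that rose, by limma's test at an adjusted p under 0.05. In *Winnie* mice 7 fell (20.0%) and 4 rose (11.4%), against 11.9% and 11.3% of all genes. The median log2 change of the 35 genes was -0.19 in *Eeyore* and -0.18 in *Winnie* mice, beside -0.04 and -0.05 over all genes. The changes were moderate: the lowest were -1.21 (*Wipi2*, *Eeyore*) and -1.65 (*Atg16l2*, *Winnie*, a gene below the level of the filter in that strain), and the highest were 0.59 (*Atg3*, *Eeyore*) and 0.76 (*Atg4d*, *Winnie*). Both comparisons use the same 3 wild-type arrays.

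The balance of these counts rested on the scaling of the arrays, and their size also on single mice. Centring every array on its median raised all changes by 0.33 in *Eeyore* and 0.41 in *Winnie* mice, after which 8 autophagy genes were higher and 3 lower in *Eeyore*, and 9 higher and 3 lower in *Winnie* mice. In the same fit 32.4% of all tested genes were higher and 7.76% lower in *Eeyore* mice, and 37.1% higher and 3.96% lower in *Winnie* mice. Of all called genes, 80.7% were then higher in *Eeyore* and 90.3% in *Winnie* mice, against 45.8% and 48.6% on the deposited scaling. The median of the autophagy genes minus that of all genes, which centring cannot move, was -0.15 in *Eeyore* and -0.13 in *Winnie* mice. In *Eeyore* mice it was -0.26 with quantile normalization and -0.24 with averaged probe sets, and in *Winnie* mice it was -0.22 with averaged probe sets, -0.066 without a filter, -0.047 with a filter at the 75th percentile and -0.049 without *Winnie* mouse 2. Without wild-type mouse 2, only 4 fell and 1 rose in each strain. In that fit 10.8% of all genes fell and 10.1% rose in *Eeyore* mice, and 6.59% fell and 7.86% rose in *Winnie* mice. Without *Eeyore* mouse 2, 5 fell in *Eeyore* mice, beside 12.5% of all genes. Without *Winnie* mouse 2, 3 fell and 3 rose in *Winnie* mice, beside 7.73% and 8.17% of all genes. In *Winnie* mice 2 rose when *Winnie* mouse 1 or 3 or wild-type mouse 1 or 3 was left out, beside 7.81% to 9.99% of all genes. There 4 fell without wild-type mouse 1, beside 7.14% of all genes.

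**Figure D1:**
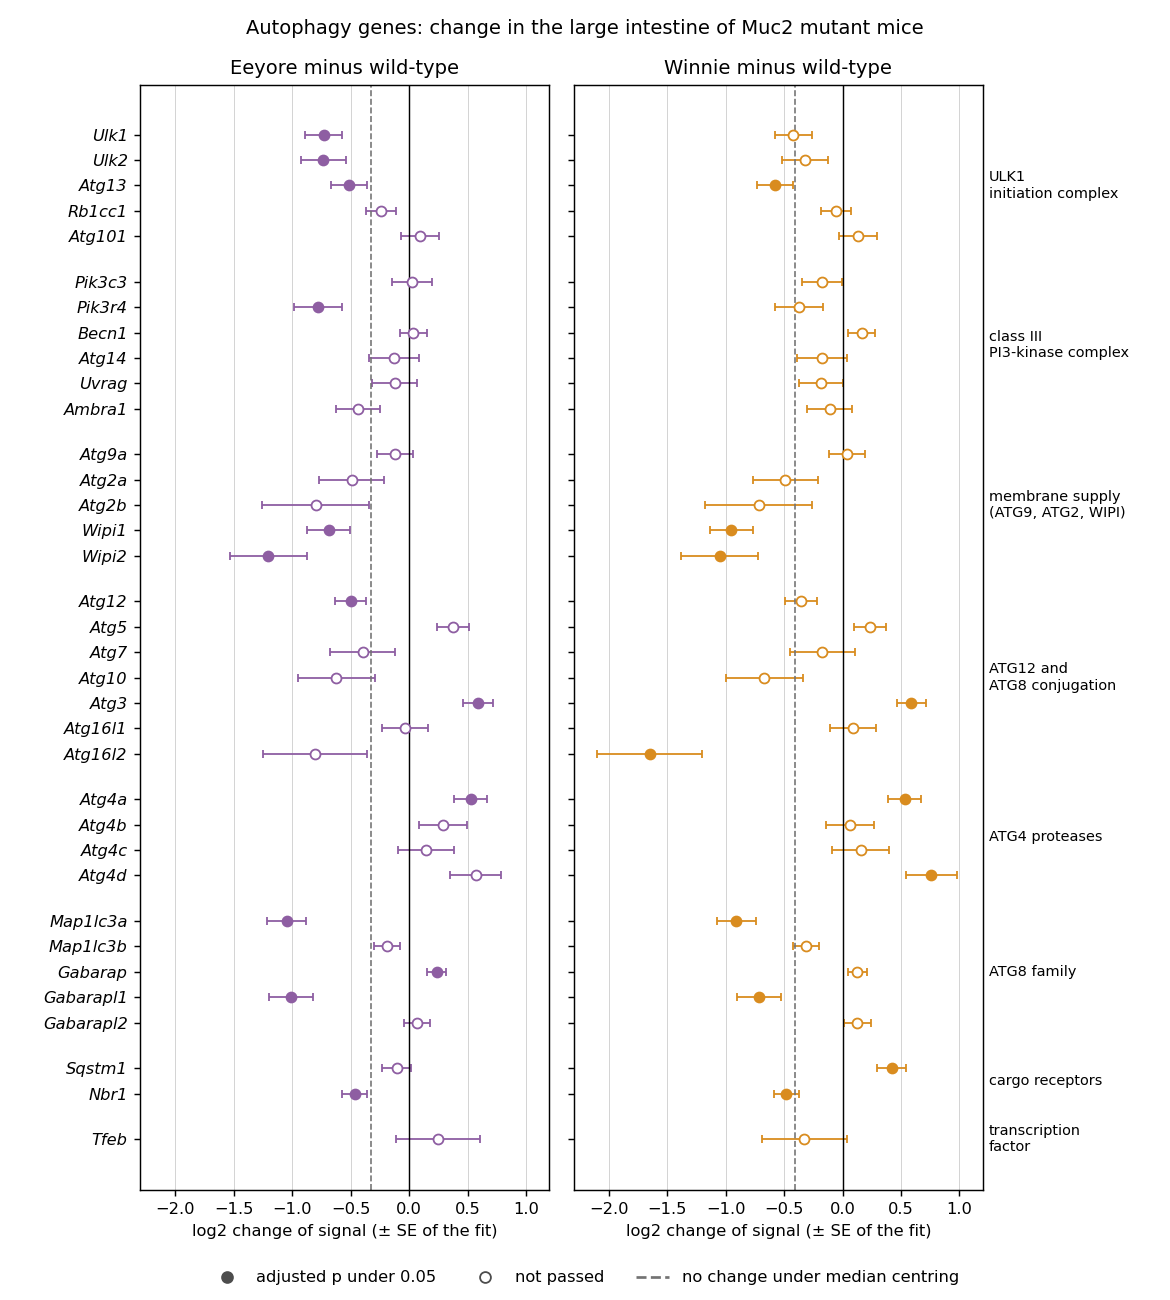
Log2 change of signal (± SE of the limma fit) of the 35 autophagy genes by role, in *Eeyore* (left) and *Winnie* mice (right), each against wild-type, n = 3 mice per group. Filled points passed an adjusted p of 0.05, and the dashed line marks no change after median centring. *Map1lc3a*, *Gabarapl1*, *Wipi1* and *Wipi2* lie far to the left in both strains, and the ATG4 proteases lie to the right.

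The ULK1 complex receives the signal to start an autophagosome. It consists of the kinases ULK1 or ULK2, the regulatory subunit ATG13, its partner ATG101 and the scaffold FIP200 (*Rb1cc1*). In *Eeyore* mice 3 of its 5 genes fell (*Ulk1*, *Ulk2* and *Atg13*), and in *Winnie* mice 1 fell (*Atg13*). *Ulk1* had signals of 419.6, 361 and 439 in *Eeyore* mice, 470.1, 497 and 539.8 in *Winnie* mice, and 686, 739 and 599 in wild-type mice. Every mutant mouse lay below every wild-type mouse, and the *Eeyore* mice also below the *Winnie* mice. The log2 change was -0.73 ± 0.16 (SE, adjusted p = 0.0051, limma) in *Eeyore* and -0.42 ± 0.16 (adjusted p = 0.0755) in *Winnie* mice.

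*Ulk2*, its close relative, had signals of 373, 299 and 388 in *Eeyore*, 392, 535 and 486 in *Winnie*, and 476, 655 and 639 in wild-type mice. *Eeyore* mice lay below the wild-type range and *Winnie* mice overlapped it, with changes of -0.73 ± 0.19 (adjusted p = 0.0148) and -0.32 ± 0.19 (adjusted p = 0.258). *Atg13* had 403, 459 and 489 in *Eeyore*, 452, 428 and 413 in *Winnie*, and 646, 703 and 585 in wild-type mice. Here both strains lay wholly below wild-type, at -0.52 ± 0.15 (adjusted p = 0.0254) and -0.58 ± 0.15 (adjusted p = 0.02). A dimmer *Atg13* probe set changed by -0.06 and 0.21 and did not pass in either strain. *Rb1cc1* (-0.24 in *Eeyore*, -0.06 in *Winnie*) and *Atg101* (0.09 and 0.13) did not pass. A second *Rb1cc1* probe set, however, fell in *Eeyore* mice (-1.12, adjusted p = 0.00618), with all of them below wild-type, and did not pass in *Winnie* mice (-0.58, adjusted p = 0.116).

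After median centring none of these 4 calls remained (adjusted p = 0.0753 for *Ulk1*, 0.159 for *Ulk2*, and 0.375 and 0.445 for *Atg13* in *Eeyore* and *Winnie* mice). The *Ulk2* call also ended without *Eeyore* mouse 2 (adjusted p = 0.0581) or wild-type mice 2 (0.0632) or 3 (0.0518). The *Atg13* call in *Eeyore* mice ended without *Eeyore* mouse 1 or 2 or wild-type mouse 1 or 2 (adjusted p = 0.0543 to 0.0955), and that in *Winnie* mice without *Winnie* mouse 2 or 3 or wild-type mouse 1 or 2 (0.0505 to 0.0816).

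The class III PI3-kinase complex makes the lipid that marks the growing membrane. Its catalytic subunit VPS34 is encoded by *Pik3c3*, and VPS15, the subunit that VPS34 needs for activity, by *Pik3r4*. *Pik3r4* was the only 1 of these 6 genes that passed in either strain. Its signals were 593, 395 and 653 in *Eeyore* mice, 811, 605 and 727 in *Winnie* mice, and 1064, 947 and 772 in wild-type mice. The *Eeyore* mice lay below the wild-type range, and the *Winnie* mice overlapped it. The change was -0.78 ± 0.21 (adjusted p = 0.0147) in *Eeyore* and -0.37 ± 0.21 (adjusted p = 0.216) in *Winnie* mice, and the *Eeyore* call ended after median centring (adjusted p = 0.0889) and without *Eeyore* mouse 2 (0.0558), wild-type mice 1 (0.0603) or 2 (0.0504).

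*Becn1*, which encodes the Beclin 1 scaffold of the same complex, had signals of 3439.8, 3075 and 3681 in *Eeyore* mice, 3681, 3401 and 4032 in *Winnie* mice, and 3036, 3193 and 3720.0 in wild-type mice. The groups overlapped, with changes of 0.04 ± 0.12 (adjusted p = 0.837) and 0.16 ± 0.12 (adjusted p = 0.339). The 4 tested *Becn1* probe sets differed in sign (-1.11 to 0.15 in *Eeyore*, -2.32 to 0.16 in *Winnie*), and none passed. *Pik3c3* (0.02 in *Eeyore*, -0.18 in *Winnie*), *Atg14*, which targets the complex to the forming autophagosome (-0.13 and -0.17), *Uvrag*, its alternative subunit (-0.12 and -0.19), and *Ambra1*, a regulator of Beclin 1 (-0.44 and -0.11), did not pass in either strain.

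The membrane of the sac is supplied by ATG9A, a lipid scramblase carried on vesicles, by the lipid-transfer proteins ATG2A and ATG2B, and by the WIPI proteins, which read the lipid made by VPS34. The 2 WIPI genes fell in both strains. *Wipi1* had signals of 558, 445 and 444 in *Eeyore* mice, 467, 323 and 424 in *Winnie* mice, and 731, 864 and 731 in wild-type mice. No mutant mouse reached the wild-type range, and *Winnie* mouse 2 was the lowest of all. The change was -0.69 ± 0.18 in *Eeyore* (adjusted p = 0.0143) and -0.95 ± 0.18 in *Winnie* mice (adjusted p = 0.00389). All 5 tested *Wipi1* probe sets had a negative change in both strains (-0.76 to -0.34 in *Eeyore*, -1.01 to -0.44 in *Winnie*), and 2 of them passed in each. The *Winnie* call held under all 20 alternatives, while the *Eeyore* call ended after median centring (adjusted p = 0.145) and without *Eeyore* mouse 2 (0.0503) or wild-type mouse 2 (0.063).

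*Wipi2*, whose product recruits ATG16L1 to the membrane, had signals of 157, 421 and 388 in *Eeyore*, 313, 266 and 424 in *Winnie*, and 798, 679 and 581 in wild-type mice. Both strains lay below wild-type, at -1.21 ± 0.33 (adjusted p = 0.0176) and -1.05 ± 0.33 (adjusted p = 0.0404). The size depended on the probe set: the other tested *Wipi2* probe sets changed by -0.01 and -0.57 in *Eeyore* and by -0.29 and -0.67 in *Winnie* mice, and none of these passed. The *Wipi2* call ended without wild-type mouse 1 or 2 in *Eeyore* mice (adjusted p = 0.0645 and 0.0515), and in *Winnie* mice without *Winnie* mouse 1 or 2 or any of the 3 wild-type mice (0.0549 to 0.131). Averaging its probe sets ended the call in both strains. The *Winnie* call also ended after median centring, after quantile normalization and without the intensity trend. *Atg9a* (-0.12 in *Eeyore*, 0.04 in *Winnie*), *Atg2a* (-0.49 and -0.49) and *Atg2b* (-0.80 and -0.72) did not pass. The SE of *Atg2b* was 0.46, with signals of 62.2 to 272 in *Eeyore*, 148 to 190.2 in *Winnie* and 228 to 332 in wild-type mice.

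**Figure D2:**
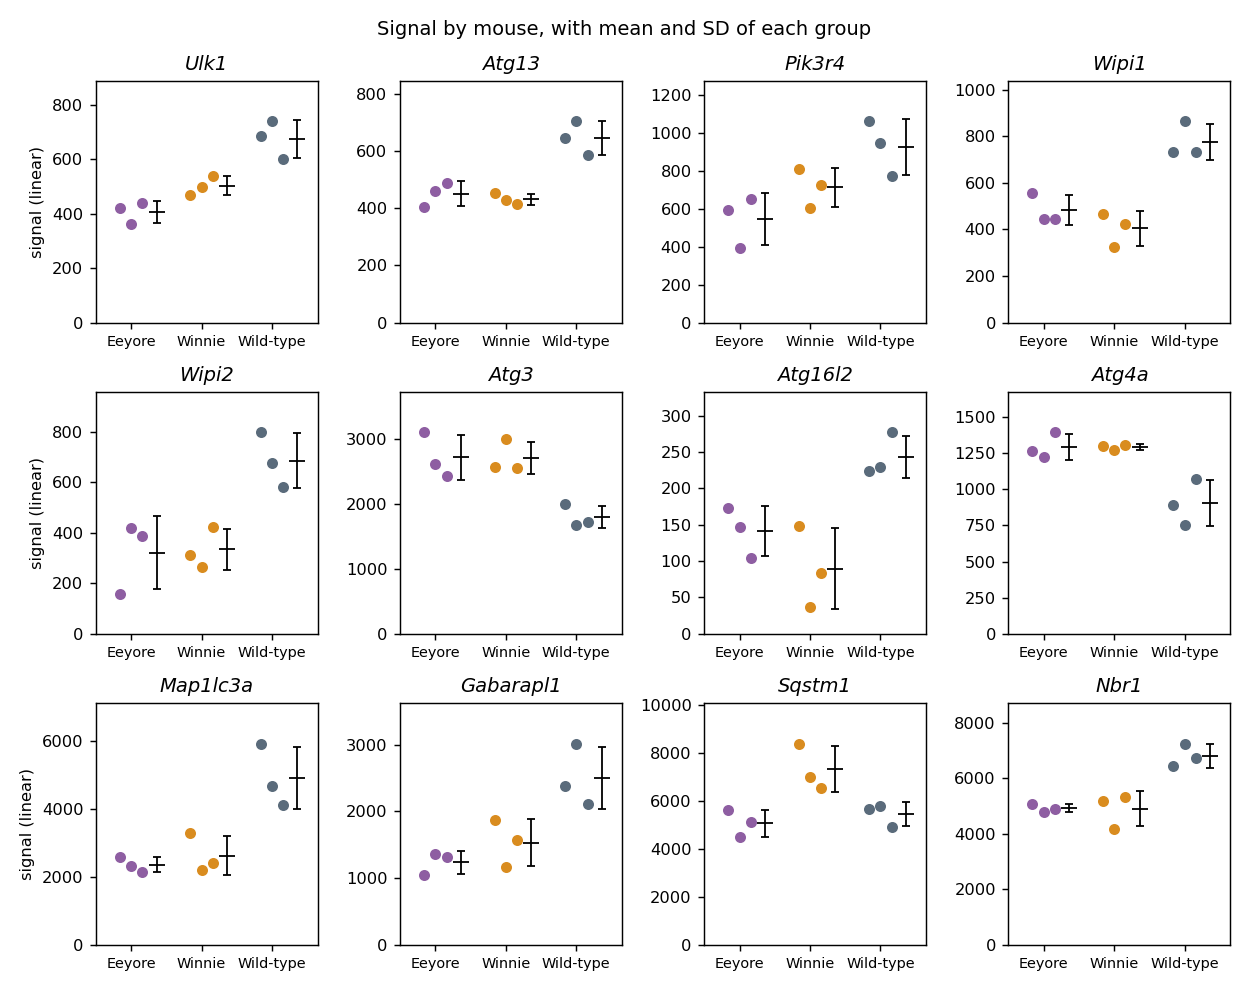
Deposited signal (linear scale from 0) of 12 autophagy genes in each of 3 *Eeyore*, 3 *Winnie* and 3 wild-type mice, with the mean and SD of each group in black. Mutant mice lie below all wild-type mice in *Ulk1*, *Atg13*, *Wipi1*, *Wipi2*, *Map1lc3a*, *Gabarapl1* and *Nbr1* and above them in *Atg3* and *Atg4a*, and *Sqstm1* is highest in *Winnie* mice.

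Conjugation runs in 2 arms. ATG7 activates ATG12 and the ATG8 proteins, ATG10 joins ATG12 to ATG5, ATG16L1 binds that pair, and ATG3 passes ATG8 proteins to lipid. In *Eeyore* mice the arms did not move as one: *Atg3* rose and *Atg12* fell. In *Winnie* mice *Atg3* rose, and the only gene called as a fall was *Atg16l2*, whose mean in that strain lay below the filter. *Atg3* (chromosome 16, 45158829 to 45188538) had signals of 3101, 2616 and 2428 in *Eeyore* mice, 2564, 2995 and 2558 in *Winnie* mice, and 1996, 1677 and 1727 in wild-type mice. All 6 mutant mice lay above all wild-type mice. The change was 0.59 ± 0.13 in *Eeyore* (1.5-fold, adjusted p = 0.00482) and 0.59 ± 0.13 in *Winnie* mice (1.5-fold, adjusted p = 0.00711). Both calls held with each mouse left out and ended only when an untested, dim *Atg3* probe set was averaged in (changes of 1.10 and 1.12, adjusted p = 0.203 and 0.221).

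*Atg12*, the ubiquitin-like protein of the first arm, had signals of 1051, 963 and 1167 in *Eeyore*, 1159, 1094 and 1255 in *Winnie*, and 1309, 1529 and 1667 in wild-type mice. Mutant mice lay below wild-type, at -0.50 ± 0.13 (adjusted p = 0.0156) in *Eeyore* and -0.36 ± 0.13 (adjusted p = 0.0781) in *Winnie* mice. Another *Atg12* probe set moved the other way (0.24 and 0.38, neither passed), and the *Eeyore* call ended after median centring (adjusted p = 0.386) and without *Eeyore* mouse 2 (0.0612) or wild-type mice 2 (0.0556) or 3 (0.0628).

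*Atg16l2*, a relative of *Atg16l1*, had signals of 173, 147 and 104 in *Eeyore*, 148, 37.0 and 83.6 in *Winnie*, and 223, 229 and 277 in wild-type mice. All mutant mice lay below wild-type, and *Winnie* mouse 2 was the lowest. The change was -0.81 ± 0.45 (adjusted p = 0.195) in *Eeyore* and -1.65 ± 0.45 (adjusted p = 0.0218) in *Winnie* mice. The mean of the *Winnie* mice (6.27 on the log2 scale) was below the filter (6.43), which the gene passed through the other groups, and without a filter the adjusted p was 0.0381. The *Winnie* value is imprecise: without *Winnie* mouse 2 it was -1.12 (adjusted p = 0.0604), and the call also ended without any 1 of the wild-type mice (0.0552 to 0.0654). *Atg16l1* itself did not pass (-0.04 in *Eeyore*, 0.09 in *Winnie*), nor did *Atg10* (-0.63 and -0.67).

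*Atg5* had signals of 1330.1, 1266 and 1198 in *Eeyore* mice, 1290.1, 993 and 1188 in *Winnie* mice, and 1100.4, 907 and 932 in wild-type mice. The *Eeyore* mice lay above the wild-type range without passing the test (0.37 ± 0.14, adjusted p = 0.0613), and the *Winnie* mice overlapped it (0.24 ± 0.14, adjusted p = 0.241). All 3 of its probe sets had a positive change in both strains, and 1 of them passed at 0.78 in *Eeyore* (adjusted p = 0.00514) and at 0.60 in *Winnie* mice (adjusted p = 0.0255). *Atg7* did not pass on its brightest probe set (-0.40 and -0.17). A second *Atg7* probe set fell in *Eeyore* mice (-1.35, adjusted p = 0.0145) but not in *Winnie* mice (-0.37, adjusted p = 0.487). The dimmest tested *Atg7* probe set had positive changes that did not pass (0.73 and 1.10).

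The ATG4 proteases trim the ATG8 proteins before conjugation and release them from lipid afterwards. This was the only role group of more than 1 gene in which all changes were positive in both strains on the brightest probe sets (0.14 to 0.57 in *Eeyore*, 0.06 to 0.76 in *Winnie*, 4 genes). *Atg4a* had signals of 1266, 1223 and 1395 in *Eeyore* mice, 1303, 1273 and 1308 in *Winnie* mice, and 889, 756 and 1073 in wild-type mice. All mutant mice lay above wild-type, at 0.53 ± 0.14 in *Eeyore* (adjusted p = 0.0154) and 0.53 ± 0.14 in *Winnie* mice (adjusted p = 0.02). *Atg4a* lies on the X chromosome, and the effect of the difference in *Xist* and Y-linked signals between the groups cannot be told apart from that of the allele. The calls ended without wild-type mouse 2 (0.40, adjusted p = 0.0706, and 0.41, adjusted p = 0.0869), and that in *Winnie* mice also without *Winnie* mouse 3 (0.0584) or wild-type mouse 1 (0.0584).

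*Atg4d* had signals of 1269.8, 1232 and 765 in *Eeyore*, 1228, 1104 and 1311 in *Winnie*, and 915, 553 and 723 in wild-type mice. *Winnie* mice lay above the wild-type range and *Eeyore* mouse 3 lay within it. The change was 0.57 ± 0.22 in *Eeyore* (adjusted p = 0.069) and 0.76 ± 0.22 in *Winnie* mice (adjusted p = 0.0279). The *Winnie* call ended without *Winnie* mouse 1 (adjusted p = 0.0627) or 3 (0.0871) and without wild-type mouse 2 (0.115) or 3 (0.0589). *Atg4b* (0.29 and 0.06) and *Atg4c* (0.14 and 0.15) did not pass, and a second probe set of each went the other way. That of *Atg4b* fell by 0.62 in *Eeyore* (adjusted p = 0.0184) and by 0.61 in *Winnie* mice (adjusted p = 0.0251), so that the direction of *Atg4b* is not settled. That of *Atg4c* fell by 1.60 in *Eeyore* mice (adjusted p = 0.0332) and did not pass in *Winnie* mice (-0.83, adjusted p = 0.263).

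The ATG8 family did not move as one. *Map1lc3a*, which encodes LC3A, and *Gabarapl1* fell in both strains. On their brightest probe sets the changes of *Map1lc3b*, *Gabarap* and *Gabarapl2* lay between -0.31 and 0.24. *Map1lc3a* (chromosome 2, 155276364 to 155278073) had signals of 2587, 2319 and 2155 in *Eeyore* mice, 3276, 2189 and 2395 in *Winnie* mice, and 5918, 4674 and 4124 in wild-type mice. The mutant mice lay wholly below wild-type, with *Winnie* mouse 1 the highest among them. The change was -1.05 ± 0.17 in *Eeyore* (2.07-fold lower, adjusted p = 0.000874) and -0.91 ± 0.17 in *Winnie* mice (1.88-fold lower, adjusted p = 0.00307). A second *Map1lc3a* probe set also fell, by 1.60 (adjusted p = 9.95e-05) and 0.79 (adjusted p = 0.00856) on the log2 scale. Both calls held under all 20 alternatives, with adjusted p no higher than 0.00805 in *Eeyore* and 0.0213 in *Winnie* mice.

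*Gabarapl1* (chromosome 6, 129533192 to 129542331) had signals of 1041, 1358 and 1314 in *Eeyore* mice, 1863, 1163 and 1569 in *Winnie* mice, and 2382, 3017 and 2104 in wild-type mice. The mutant mice again lay below all wild-type mice. The change was -1.01 ± 0.19 in *Eeyore* (2.01-fold lower, adjusted p = 0.00232) and -0.72 ± 0.19 in *Winnie* mice (1.64-fold lower, adjusted p = 0.0189). A second *Gabarapl1* probe set fell by 1.05 (adjusted p = 0.000867) and 0.68 (adjusted p = 0.0139). The *Eeyore* call held under all 20 alternatives, whereas that in *Winnie* mice ended after median centring (-0.31, adjusted p = 0.211) and without *Winnie* mouse 2 (0.0684) or wild-type mouse 2 (0.0851).

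*Gabarap* had signals of 10989, 11554 and 12089 in *Eeyore*, 10819, 10492 and 10784 in *Winnie*, and 9804, 10466 and 9166 in wild-type mice. All mutant mice lay above wild-type by a small margin. The change was 0.24 ± 0.08 in *Eeyore* (1.18-fold, adjusted p = 0.0443) and 0.13 ± 0.08 in *Winnie* mice (adjusted p = 0.280). The *Gabarap* call was the least firm, since it ended under 14 of 20 alternatives, among them leaving out *Eeyore* mouse 2 or 3, *Winnie* mouse 1 or 3 or any wild-type mouse (adjusted p = 0.0504 to 0.135).

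*Map1lc3b*, which encodes the LC3B protein used as the usual marker of autophagosomes, had signals of 7406, 6351 and 7306 in *Eeyore* mice, 6848, 5911 and 6603 in *Winnie* mice, and 8145, 6932 and 9074 in wild-type mice. *Eeyore* mice overlapped the wild-type range and *Winnie* mice lay just below it, at -0.19 ± 0.11 (adjusted p = 0.221) and -0.31 ± 0.11 (adjusted p = 0.0679). Its other tested probe sets fell in *Eeyore* mice (-0.54, adjusted p = 0.0264, and -0.40, adjusted p = 0.0302), and 1 of them fell in *Winnie* mice (-0.59, adjusted p = 0.00611). *Gabarapl2* did not pass (0.07 and 0.13), nor did a dimmer *Gabarapl2* probe set with negative changes (-0.34 and -0.64).

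**Figure D3:**
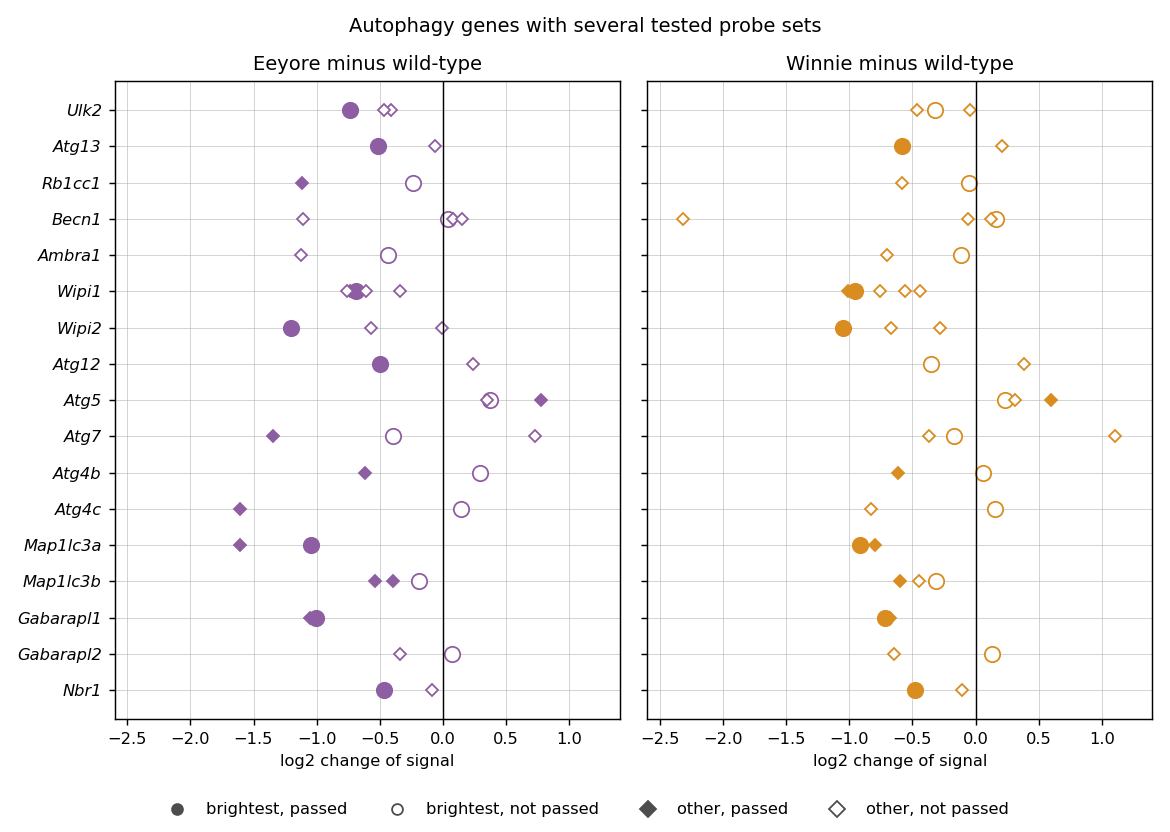
Log2 change against wild-type of every tested probe set of the 17 autophagy genes that have more than 1, in *Eeyore* (left) and *Winnie* mice (right). Large circles are the brightest probe sets that stand for the gene, diamonds the others, and filled symbols passed an adjusted p of 0.05. All symbols of *Wipi1*, *Map1lc3a*, *Map1lc3b* and *Gabarapl1* lie left of 0, while those of *Atg12*, *Atg7*, *Atg4b* and *Atg4c* lie on both sides.

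Of the 35 genes, 18 had 1 tested probe set and 17 had more. Among the 17, all tested probe sets had the same sign in 11 genes for *Eeyore* and in 10 for *Winnie* mice. Over all 62 tested probe sets, 19 fell and 4 rose in *Eeyore* mice, and 12 fell and 5 rose in *Winnie* mice. Of all 22519 tested probe sets, 17.1% fell and 12.2% rose in *Eeyore* mice, and 11.7% fell and 9.75% rose in *Winnie* mice. When probe sets of a gene were averaged in place of taking the brightest, 6 genes fell and 2 rose in *Eeyore* mice, and 4 fell and none rose in *Winnie* mice (limma, adjusted p under 0.05), beside 11.3% of all genes that fell and 9.32% that rose in *Eeyore* mice, and 7.20% and 6.66% in *Winnie* mice.

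The cargo receptors hold ubiquitin or other labels on cargo with 1 end and ATG8 proteins with the other. *Sqstm1*, which encodes p62 (chromosome 11, 50200152 to 50210820), had signals of 5627, 4493 and 5106 in *Eeyore* mice, 8396, 7018 and 6546 in *Winnie* mice, and 5669, 5811 and 4901 in wild-type mice. All *Winnie* mice lay above all other mice, and the *Eeyore* mice overlapped wild-type. The change against wild-type was -0.11 ± 0.12 in *Eeyore* (adjusted p = 0.531) and 0.42 ± 0.12 in *Winnie* mice (1.34-fold, adjusted p = 0.0281). The rise in *Winnie* mice ended under 9 of 20 alternatives, among them leaving out *Winnie* mouse 1 or 2 or any wild-type mouse (adjusted p = 0.0521 to 0.0948).

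*Nbr1*, a receptor built like p62, had signals of 5073, 4778 and 4889 in *Eeyore*, 5183, 4172 and 5325 in *Winnie*, and 6423, 7245 and 6717 in wild-type mice. The mutant mice lay below wild-type, at -0.47 ± 0.11 in *Eeyore* (1.38-fold lower, adjusted p = 0.00666) and -0.48 ± 0.11 in *Winnie* mice (1.39-fold lower, adjusted p = 0.00825). Both *Nbr1* calls held with each mouse left out and ended after median centring (-0.14 and -0.07, adjusted p = 0.347 and 0.660). A dimmer *Nbr1* probe set changed by -0.09 and -0.11 and did not pass.

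*Tfeb*, the transcription factor of the list, had signals of 378, 335 and 241 in *Eeyore* mice, 168, 256 and 216 in *Winnie* mice, and 329, 404 and 138 in wild-type mice. Wild-type mouse 3 was the lowest and wild-type mouse 2 the highest of all 9, so that the groups overlapped. The changes were 0.24 ± 0.36 (adjusted p = 0.640) and -0.33 ± 0.36 (adjusted p = 0.551).

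Set directly against each other, the 2 mutant strains differed in 1 of the 35 genes, beside 1.29% of all tested genes higher and 1.30% lower in *Eeyore* than in *Winnie* mice. That gene was *Sqstm1*, lower in *Eeyore* mice by 0.53 ± 0.12 on the log2 scale (1.44-fold, adjusted p = 0.0431). The difference ended under 11 of 20 alternatives (adjusted p = 0.0167 to 0.734 over all 20), among them leaving out any mouse other than *Eeyore* mouse 1 or wild-type mouse 3. The median difference of the 35 genes between the strains was -0.04, beside -0.01 over all genes. The differences of *Ulk1*, *Ulk2* and *Gabarap* (-0.31 ± 0.16, -0.41 ± 0.19 and 0.11 ± 0.08, limma, adjusted p = 0.387, 0.343 and 0.564) did not pass.

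**Figure D4:**
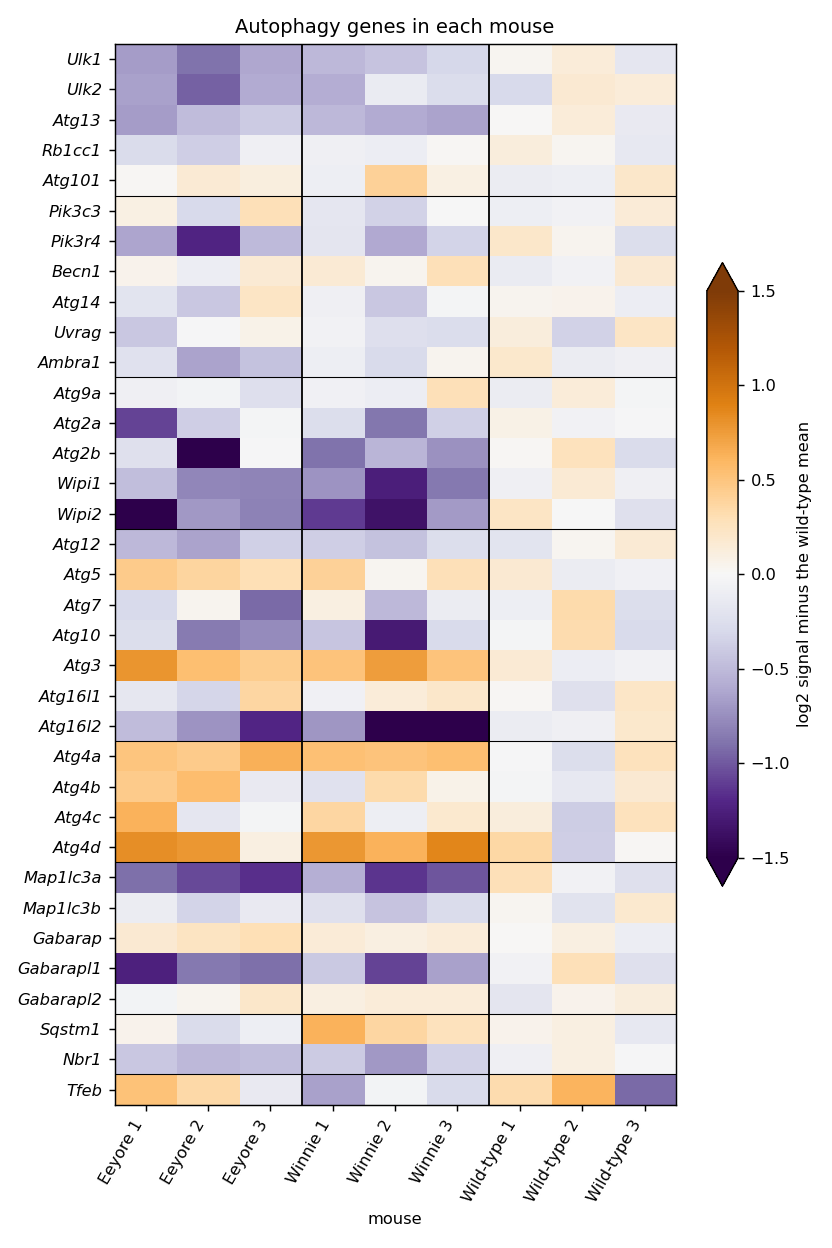
Log2 signal of the 35 autophagy genes in each mouse minus the mean of the 3 wild-type mice, with genes grouped by role (horizontal lines) and mice by strain (*Eeyore*, *Winnie*, wild-type). *Winnie* mouse 2 is the darkest column of its strain, with a median of -0.29 over the 35 genes against -0.17 and -0.11 in *Winnie* mice 1 and 3.

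Mice of a strain also differed among themselves. *Winnie* mouse 2 had the lowest signal of its strain in 23 of the 35 genes, including *Wipi1*, *Wipi2*, *Atg16l2*, *Map1lc3a*, *Gabarapl1* and *Nbr1*. *Eeyore* mouse 2 was the lowest of its strain in 17. The median log2 signal of the 35 genes relative to the wild-type mean was -0.21, -0.33 and -0.13 in *Eeyore* mice 1 to 3, -0.17, -0.29 and -0.11 in *Winnie* mice, and 0.01, 0.03 and -0.06 in wild-type mice. The summed signal of 9 macrophage and neutrophil markers was also highest in *Winnie* mouse 2 within its strain (17234, against 10940 and 10759), but among *Eeyore* mice it was highest in mouse 3 (21140, against 11122 and 16309). The part of these cells in the autophagy values was not tested.

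Markers of other cells also changed. Of all tested genes, 16.6% fell and 14.0% rose in *Eeyore* mice, and 11.9% fell and 11.3% rose in *Winnie* mice. All 15 smooth muscle markers fell in both strains (median -1.56 in *Eeyore*, -1.13 in *Winnie*), and their summed signal was 77277 to 86263 in *Eeyore*, 95211 to 104323 in *Winnie* and 208286 to 213536 in wild-type mice. Set directly against *Winnie* mice, 4 of the 15 were lower in *Eeyore* mice. Of 5 tested neuron and glia markers, 3 fell in *Eeyore* and 2 in *Winnie* mice (summed over 6 markers 528 to 796 in *Eeyore*, 541 to 814 in *Winnie* and 1127 to 1630.2 in wild-type mice). Of 9 epithelial markers, 6 rose in *Eeyore* and 5 in *Winnie* mice and none fell (summed 238161 to 267200 in *Eeyore*, 239082 to 244025 in *Winnie* and 188751 to 191762 in wild-type mice). Of 6 colonocyte markers 1 rose in each strain and none fell, while 4 had a negative change in each (medians -0.12 in *Eeyore*, -0.15 in *Winnie*). Of 8 tested lymphocyte and plasma cell markers 1 rose in *Eeyore* (median 0.45) and 1 fell in *Winnie* mice (median -0.38). Of 7 fibroblast markers 4 fell in *Eeyore* and 2 in *Winnie* mice, of 3 tested adipocyte markers 2 fell in each (median -2.77 in *Eeyore*, -1.10 in *Winnie*), of 8 goblet cell markers 3 fell and 1 rose in each, and of 9 macrophage and neutrophil markers 5 rose in *Eeyore* and 3 in *Winnie* mice. The part of these shifts in the changes of the autophagy genes was not tested.

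Genes that act around this core were read from 4 further lists. Of 14 genes for fusion of the sac with lysosomes, 1 rose and 1 fell in each strain. Of all tested genes, 14.0% rose and 16.6% fell in *Eeyore* mice, and 11.3% rose and 11.9% fell in *Winnie* mice. After median centring 6 of the 14 were higher in *Eeyore* and 7 in *Winnie* mice, beside 32.4% and 37.1% of all tested genes, and none was lower. *Stx17*, the SNARE protein of the closed autophagosome, had signals of 994, 774 and 698 in *Eeyore*, 972, 638 and 751 in *Winnie*, and 1356, 1209 and 1258 in wild-type mice, with changes of -0.65 ± 0.18 (adjusted p = 0.0180) and -0.72 ± 0.18 (adjusted p = 0.0149). Mutant mice lay below wild-type in *Stx17*. *Plekhm1*, an adaptor for late endosomes and lysosomes, rose in *Eeyore* mice (0.56, adjusted p = 0.0426), and *Vamp8*, a SNARE partner of syntaxin 17, rose in *Winnie* mice (0.40, adjusted p = 0.0150). The median over the 14 genes was 0.11 in *Eeyore* and -0.08 in *Winnie* mice.

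Lysosomal proteins fell more often than they rose on the deposited scaling. After median centring 6 were higher and 3 lower in *Eeyore* mice, beside 32.4% and 7.76% of all tested genes. In *Winnie* mice 8 were then higher and 1 lower, beside 37.1% and 3.96% of all tested genes. On the deposited scaling, of 29 tested genes, 8 fell and 2 rose in *Eeyore* mice (median -0.18), and 9 fell and 1 rose in *Winnie* mice (median -0.27), beside the 16.6% and 11.9% of all genes that fell. *Ctsl*, which encodes the protease cathepsin L, had signals of 6006, 4646 and 5428 in *Eeyore* mice, 6564, 6218 and 5509 in *Winnie* mice, and 10296, 9673 and 8167 in wild-type mice, at -0.81 (adjusted p = 0.000623) and -0.62 (adjusted p = 0.00444). *Neu1*, a lysosomal sialidase, changed by -0.65 and -1.0, and *Scarb2*, which carries glucocerebrosidase to lysosomes, by -0.85 and -0.51, all past the threshold. *Ctsf*, which encodes cathepsin F and is counted among the falls in *Eeyore* mice, had signals of 19.1 to 82.2 in *Eeyore*, 123 to 244 in *Winnie* and 109 to 166 in wild-type mice. All *Eeyore* values lay below the signal of the filter (85.9), so no size of change is given.

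Among genes of nutrient sensing and transcriptional control, 6 of 27 fell and 1 rose in *Eeyore* mice (median 0.02), beside 16.6% and 14.0% of all tested genes. In *Winnie* mice 4 fell and 1 rose (median -0.12), beside 11.9% and 11.3%. After median centring 8 were higher and 3 lower in *Eeyore* mice, beside 32.4% and 7.76% of all tested genes. In *Winnie* mice 9 were then higher and 3 lower, beside 37.1% and 3.96%. On the deposited scaling the falls were large in a few regulators. *Zkscan3*, a repressor of autophagy genes, had signals of 316, 462 and 372 in *Eeyore* mice, 282, 474 and 643 in *Winnie* mice, and 1423, 1217 and 1245 in wild-type mice, at -1.77 ± 0.26 (adjusted p = 0.000539) and -1.55 ± 0.26 (adjusted p = 0.0019). *Foxo3*, a transcription factor that induces autophagy genes, had 1159, 882 and 1355 in *Eeyore*, 1556, 1517 and 1483 in *Winnie*, and 3609, 2414 and 2792 in wild-type mice, at -1.38 (adjusted p = 0.000226) and -0.93 (adjusted p = 0.00349). Mutant mice lay below wild-type in both genes.

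Further receptors and early factors were mixed, with 5 of 24 higher and 6 lower in *Eeyore* mice (median -0.22), beside 14.0% and 16.6% of all tested genes. In *Winnie* mice 4 were higher and 4 lower (median -0.20), beside 11.3% and 11.9%. After median centring 9 were higher and 3 lower in *Eeyore* mice, beside 32.4% and 7.76% of all tested genes. In *Winnie* mice 8 were then higher and 1 lower, beside 37.1% and 3.96%. *Retreg1*, a receptor for autophagy of the ER also known as FAM134B, had signals of 3749.6, 3143 and 3477 in *Eeyore* mice, 4509.6, 3265 and 4674 in *Winnie* mice, and 6710.5, 9146 and 7594 in wild-type mice, at -1.17 ± 0.15 (adjusted p = 0.000256) and -0.92 ± 0.15 (adjusted p = 0.0017). *Tmem41b*, an ER scramblase needed for autophagosomes, rose (0.96 and 0.67), and so did *Irgm1*, an interferon-inducible GTPase (1.28 and 0.81). *Stbd1*, a receptor for glycogen counted among the falls in *Eeyore* mice, had signals of 12.5 to 69.3 in *Eeyore*, 111 to 141 in *Winnie* and 275 to 301 in wild-type mice, with all *Eeyore* values below the signal of the filter and no size of change given.

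**Figure D5:**
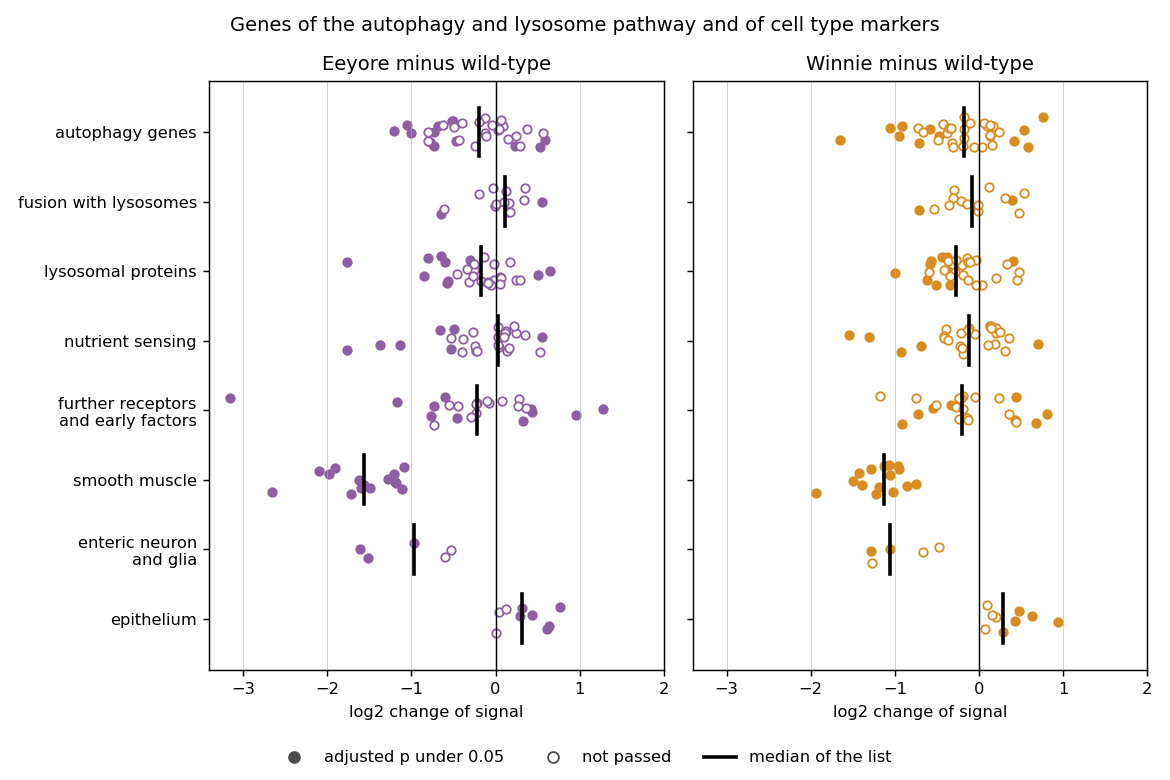
Log2 change against wild-type of single genes in *Eeyore* (left) and *Winnie* mice (right), by list: the 35 autophagy genes, the 4 lists around them, and markers of smooth muscle, of enteric neurons and glia, and of epithelium. Filled points passed an adjusted p of 0.05 and black bars are medians. The autophagy genes spread around their medians of -0.19 and -0.18, while all 15 smooth muscle markers lie left of 0 and all 9 epithelial markers right of it.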

How the data were processed

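The authors labelled RNA of 9 mice with the Affymetrix One-Cycle kit and deposited, for each array, intensities of 45101 probe sets on a linear scale, scaled to a mean of 500 after trimming 2% at each end. The algorithm behind the intensity is not given in the sources used here. After log2 transformation, control probe sets were dropped (45037 left), and the brighter 50% by mean over the 9 arrays (22519, cutoff 6.43) were fitted by group in limma 3.58.1 (R 4.3.3, eBayes with an intensity trend), with Benjamini-Hochberg adjustment over all of them and a threshold of 0.05. A gene was read from its brightest probe set annotated to it alone (GEO's platform annotation, symbols updated through gene identifiers, locations from GRCm38.p6). With 3 arrays per group no exact two-sided permutation test of a single value can go below p = 0.10. The limma p-values set a difference of group means against the spread of mice within groups, pooled over the 3 groups. The labels number the mice but do not say how they were housed or bred, so whether the mice are independent samples is not known.

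The genes, lists and comparisons were chosen with earlier results of these data known. Values per mouse are given for genes called in at least 1 strain, for the gene with the largest change in a role group without calls, and for some uncalled genes (*Becn1*, *Atg5*, *Map1lc3b*) chosen after their values were seen, as were the genes of the comparison of the strains. From each further list at most the 4 called genes with the largest mean change were named. Some results of the nutrient sensing list are not reported here. The fits were repeated after median centring or quantile normalization, with no filter or one at the 75th percentile, after adding 32 to each signal, with a robust variance prior or without the trend, on the compared groups alone, with the mouse number as a block, on averaged probe sets, with a minimum change of 1.5-fold, and without each mouse in turn. Median centring of the further lists was added after seeing the data. The fit was tested on simulated data. Figures were drawn with matplotlib 3.10.9 in Python 3.11.15.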

Additional observations from a re-analysis of the deposited data

Results flagged for a closer look

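The change of *Sqstm1* against wild-type differed between the strains: it was lower in *Eeyore* than in *Winnie* mice by a log2 difference of -0.53 ± 0.12 (SE, n = 3 mice per group, adjusted p = 0.0431, limma), with all 3 *Eeyore* mice below all 3 *Winnie* mice. It was drawn out because a test of the difference itself passed the threshold, in 1 of the 35 genes. Beside it, 1.29% of all tested genes were higher and 1.30% lower in *Eeyore* than in *Winnie* mice. The *Sqstm1* difference ended under 11 of 20 alternatives. The strains also differ in genetic background, which cannot be told apart from the allele.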

How the results depend on the processing

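The 3 arrays per group limit every count. Of 24 calls against wild-type, 4 held under every alternative (*Map1lc3a* in both strains, *Gabarapl1* in *Eeyore* and *Wipi1* in *Winnie* mice) and 20 ended under at least 1. Why single settings moved a value was not tested, except that median centring shifts all genes alike and leaving out a mouse leaves fewer samples. After median centring 8 genes rose and 3 fell in *Eeyore* mice (median 0.13), 9 rose and 3 fell in *Winnie* mice (median 0.23), the median between the strains was -0.12, 4699 of all genes were called in *Winnie* mice, and changes that had not passed turned sign: *Sqstm1* in *Eeyore* mice (0.22) and *Ulk2* (0.088), *Pik3r4* (0.035) and *Atg12* (0.054) in *Winnie* mice. With the mean over probe sets 6 genes fell in *Eeyore* mice (median -0.32), none rose and 4 fell in *Winnie* mice (median -0.32), none (0) passed between the strains, all-gene calls were 1588 in *Winnie* mice and 167 between the strains, and *Atg4a* (-0.036) and *Sqstm1* (0.25) in *Eeyore* mice and *Ulk1* (0.45) in *Winnie* mice turned sign. Without the intensity trend 2 genes rose and 5 fell in *Winnie* mice, beside 8.16% and 10.3% of all genes. In that fit 0 autophagy genes and 147 of all genes differed between the strains. With only the groups compared 0 differed between the strains. A change of at least 1.5-fold left 1 gene higher and 7 lower in *Eeyore* mice, beside 7.66% and 13.4% of all genes. It left 2 higher and 5 lower in *Winnie* mice, beside 6.16% and 9.51%, and 0 between the strains. The *Winnie* median was -0.076 with quantile normalization and -0.0075 with the filter at the 75th percentile, where 26 of the 35 genes were tested.

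Leaving out each mouse gave 1 to 4 genes higher and 4 to 10 lower in *Eeyore* (median -0.24 to -0.16), 1 to 4 higher and 3 to 7 lower in *Winnie* (median -0.25 to -0.092), and 0 to 1 between the strains (median -0.11 to 0.01). All-gene calls were then 2393 to 3616, 1655 to 2836 and 174 to 516. Fewest were higher and lower without wild-type mouse 2 in *Eeyore* mice, and fewest lower without *Winnie* mouse 2 in *Winnie* mice. Same-numbered arrays of different strains correlated at -0.01 to 0.16 in their deviations from the group means, and differently numbered arrays at -0.10 to 0.02. The same-numbered pairs of *Winnie* and wild-type mice (0.07, 0.08 and 0.16) lay above all their differently numbered pairs (-0.10 to 0.02). What the mouse numbers stand for was not tested. With mouse number as a replicate block, 3 genes rose and 10 fell in *Eeyore*, 4 rose and 8 fell in *Winnie* mice, with *Gabarap* in *Eeyore* mice lost (adjusted p = 0.0608) and *Atg5* in *Eeyore* (higher, 0.0495) and *Map1lc3b* in *Winnie* mice (lower, 0.0279) gained, and 305 of all genes differed between the strains.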
